A study of Homo sapiens with 24 samples.

Results

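The genes described here are 8 secreted factors that act on blood vessels: FGFBP1, APLN, VEGFA, VEGFC, ANGPTL4, FGF2, THBS1 and EDN1. They were matched by gene symbol among the 48162 genes in the RNA-seq table of each library, and all 8 were found. The set was chosen by measured values, the FPKM of FGFBP1 and APLN, which were far lower in HPDE cells given PPCL-68 vesicles, so the members' values in that comparison, and in every HPDE comparison that shares its libraries, are given as a description with no test. The comparator of that choice was not stated and was taken to be residual medium. If it was untreated cells, the HPDE tests of PANC-1 vesicles against untreated cells share libraries with that choice.

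The recipient cells were 2 human pancreas lines. HPNE (hTERT-HPNE) is a duct-derived line that carries an added telomerase gene. HPDE (HPDE-H6c7) is an immortalised duct epithelial line. Both were grown in keratinocyte serum-free medium in 24-well plates and kept for 24 h under 1 of 4 treatments: fresh serum-free medium (untreated), residual medium left after vesicle isolation, 1e10 extracellular vesicles (EV) per well from PANC-1 pancreatic carcinoma cells, or 1e10 per well from PPCL-68 cancer cells. Each of the 8 groups had 3 libraries, described by the submitters as biological triplicates with no account of separate cultures or days, so p-values measure only the spread between these libraries. The labels give 1 vesicle dose and 1 time, both lines are immortalised, and the labels do not say which cells had conditioned the residual medium.

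Angiogenesis, the growth of new vessels, is driven by secreted ligands that bind receptors on endothelial cells. VEGFA and VEGFC act through the receptors FLT1, KDR and FLT4, APLN encodes apelin, the ligand of APLNR, and FGF2 is a fibroblast growth factor stored on heparan sulphate in the matrix until carriers such as FGFBP1 release it. EDN1 encodes the vasoconstrictor endothelin-1, ANGPTL4 inhibits lipoprotein lipase and is induced by low oxygen, and THBS1 is a matrix glycoprotein that restrains vessel growth through CD36 and CD47.

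The start-site regions of FGFBP1, APLN and FGF2 are printed because these genes had the widest ranges among treatments in HPDE, FGFBP1 and APLN on the falling side and FGF2 on the rising side. Each line holds the 250 bases before the RefSeq start, 5' to 3' on the gene's strand, from RefSeq GRCh38.p14. The windows are chr4:15938741-15938990 (minus strand) for FGFBP1, chrX:129654957-129655206 (minus strand) for APLN and chr4:122826581-122826830 (plus strand) for FGF2. Capitals mark matches to a hypoxia element (ACGTG or GCGTG, read on both strands).
FGFBP1: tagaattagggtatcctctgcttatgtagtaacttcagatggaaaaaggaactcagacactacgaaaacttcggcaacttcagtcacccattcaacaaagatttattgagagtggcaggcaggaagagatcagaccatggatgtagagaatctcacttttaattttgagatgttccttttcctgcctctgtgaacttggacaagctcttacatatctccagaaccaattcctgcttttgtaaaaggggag
APLN: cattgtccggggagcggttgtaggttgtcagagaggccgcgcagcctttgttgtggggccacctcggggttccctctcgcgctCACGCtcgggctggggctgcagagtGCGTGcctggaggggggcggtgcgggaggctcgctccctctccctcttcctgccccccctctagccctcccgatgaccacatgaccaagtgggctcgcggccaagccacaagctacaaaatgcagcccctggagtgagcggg
FGF2: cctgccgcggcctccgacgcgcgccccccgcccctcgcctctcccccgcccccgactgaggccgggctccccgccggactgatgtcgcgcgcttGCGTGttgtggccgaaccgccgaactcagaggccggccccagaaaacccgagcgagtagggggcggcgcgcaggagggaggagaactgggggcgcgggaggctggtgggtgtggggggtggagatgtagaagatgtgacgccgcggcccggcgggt
The FGFBP1 window held no match to any of the 3 motifs searched, which were AP-1 (TGANTCA), the hypoxia element and an ATF4 element (TGATGNAA). APLN held 2 hypoxia-element matches, the nearest 142 bases before the start, and FGF2 held 1, at 156 bases. Of 35116 RefSeq windows of 300 bases (250 before and 50 after the start), 48.4% held the hypoxia element, 7.71% AP-1 and 3.62% the ATF4 element, on either strand. Windows were matched for 7 of the 8 members; VEGFA had no entry. None of the 9 member windows held AP-1 or the ATF4 element. GC content of the 300 bases was 42.0% for FGFBP1, 68.0% for APLN and 74.7% for FGF2, beside a median of 58.7% over all windows. A match is a run of letters and was not measured as a binding site.

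Libraries held 29209142 to 46490312 reads assigned to genes. Levels are FPKM, the authors' reads per gene length, scaled to the total reads of the library. The markers checked set the lines apart: 7 duct epithelium genes (KRT19, EPCAM, KRT7, KRT8, KRT18, CDH1 and SOX9) summed to 1445 to 3529 FPKM in HPDE and 6.62 to 15.7 FPKM in HPNE. These duct markers were thus low in HPNE beside HPDE, with 3 of the 7 at a mean of at least 1 FPKM in each HPNE group. The 5 genes of mesenchymal or HPNE cells (VIM, TERT, NES, CDH2 and FN1) summed to 6175 to 8574 FPKM in HPNE and 81.5 to 151 FPKM in HPDE. The endothelium list summed to at most 2.88 FPKM over the 8 of 9 genes found, the immune list to at most 0.0655 FPKM and the acinar list to at most 0.0266 FPKM, with PRSS1 at 0 reads in every library. In HPNE, 1 library of each group stood apart: replicate 3 of untreated and residual medium, and replicate 1 of both vesicle groups. These lay 2.05 to 3.31 times as far from their 2 group mates as those lay from each other, against 1.08 to 1.24 times for the most distant library of each HPDE group. Results that rest on them are given below with and without them. Leaving them out keeps the 2 closest libraries of each HPNE group, which lowers the spread by construction. The adjusted p-values without them are therefore given as a description and not as support for a difference. The same holds where only 1 of them is left out, which keeps the 2 closest libraries of its group. In bulk RNA, fewer cells of a type and less RNA per cell cannot be told apart.

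FGFBP1, the carrier that frees FGFs from the matrix, was an HPDE gene in these data and was lower after every treatment there than in fresh medium. The gene (ENSG00000137440, hg19 chr4:15937192-15940363, minus strand) had 905, 838 and 775 FPKM in the untreated HPDE libraries, the 34th highest mean of all genes. It had 541, 445 and 404 FPKM with residual medium, 129.9, 143 and 152 FPKM with PANC-1 EV, and 37.6, 38.3 and 49.2 FPKM with PPCL-68 EV. No library of one HPDE group overlapped another group. The PPCL-68 EV mean was 11.1-fold below the residual medium mean, which is the difference taken to have chosen the set, and 20.1-fold below the untreated mean, while residual medium itself was 1.81-fold below untreated. The PANC-1 EV libraries, which the choice did not use, gave the test: they were lower than untreated by a log2(FPKM + 1) difference of -2.56 (SE 0.11, adjusted p = 1.07e-10 by limma, 142 ± 11.2 against 839 ± 64.6 FPKM, SD, n = 3 each). In HPNE the gene had 0 to 29 reads per library (at most 0.497 FPKM) and was under the minimum mean for testing.

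APLN, which encodes apelin, had the same order of groups in HPDE as FGFBP1. The gene (ENSG00000171388, hg19 chrX:128779240-128788933, minus strand) had 35.3, 37.2 and 39.0 FPKM in untreated HPDE libraries, 30.0, 27.3 and 27.4 FPKM with residual medium, 7.71, 7.83 and 7.65 FPKM with PANC-1 EV, and 2.24, 2.68 and 2.56 FPKM with PPCL-68 EV. The 4 HPDE groups did not overlap, and the residual medium libraries lay much nearer to untreated than to either vesicle group. The PPCL-68 EV mean was 11.3-fold below residual medium and 14.9-fold below untreated, as a description. PANC-1 EV against untreated gave -2.13 on the log2(FPKM + 1) scale (SE 0.06, adjusted p = 1.3e-12 by limma), with the limits given for the FGFBP1 test. The receptor gene APLNR had 0 reads in all 24 libraries, which allows at most 3 reads per library, so these data hold the ligand without a measured receptor. The second apelin receptor ligand, APELA, was not analysed here.

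In HPNE, APLN was near the floor in 3 groups and above it in the residual medium group. It had 146 to 163 reads per library with residual medium (1.18, 1.37 and 1.53 FPKM), 9 to 31 reads in untreated libraries (0.0902, 0.119 and 0.252 FPKM), 3 to 12 reads with PANC-1 EV and 1 to 15 reads with PPCL-68 EV. The residual medium libraries did not overlap any other HPNE group. The gene missed the minimum mean of 1 FPKM over the 12 HPNE libraries. In a fit with no minimum, residual medium was above untreated by 1.03 on the log2(FPKM + 1) scale (adjusted p = 8.27e-05 by limma), and PANC-1 EV and PPCL-68 EV were below residual medium by differences of -1.15 (adjusted p = 0.000184) and -1.13 (adjusted p = 7.18e-05). Both vesicle comparisons share the residual medium libraries. In HPDE the residual medium group lay on the other side of untreated, and the difference between the lines in this respect was not tested.

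**Figure D1:**
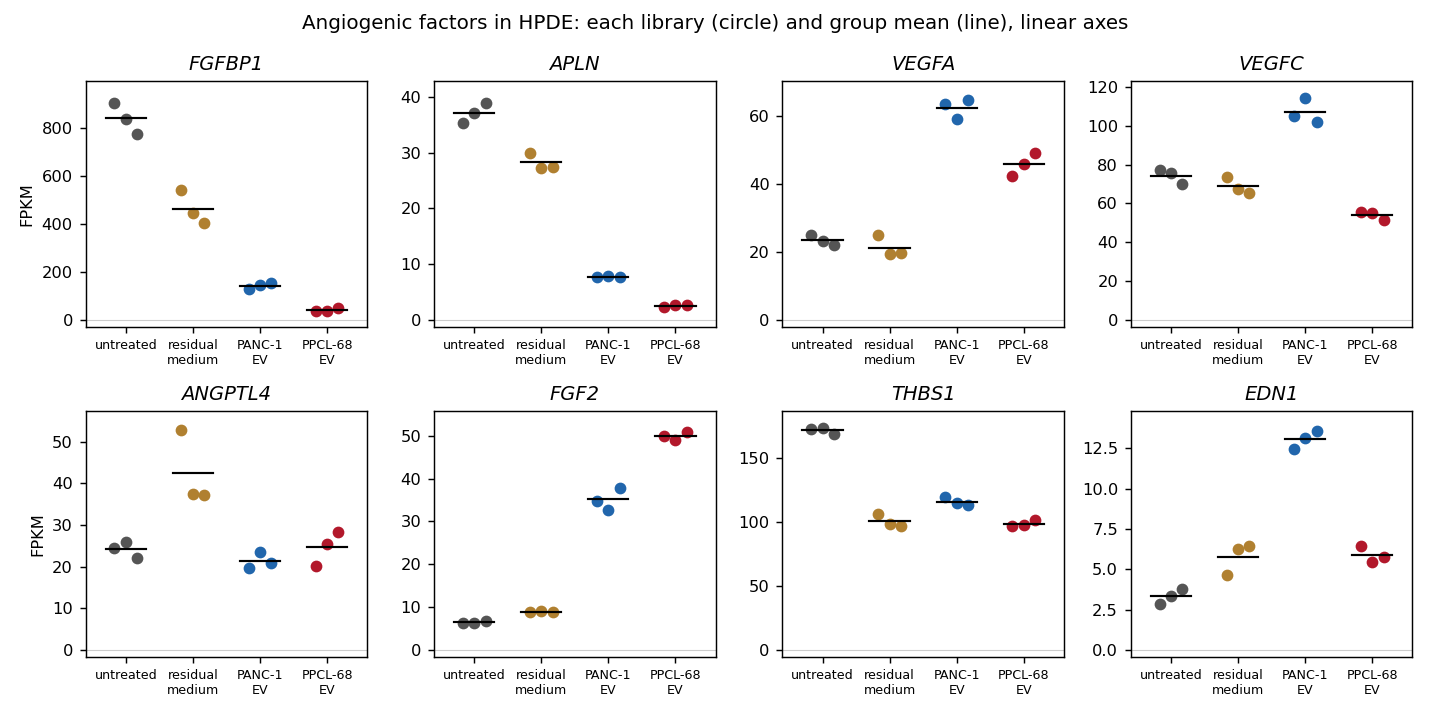
FPKM (linear axes from 0) of the 8 genes in HPDE, with 1 circle per library and a line at the mean of each group of 3. FGFBP1 steps down from 775 to 905 FPKM in untreated libraries to 37.6 to 49.2 FPKM with PPCL-68 EV, APLN takes the same order, and FGF2 takes the opposite order.

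FGF2, the growth factor that FGFBP1 can carry, ran the other way in HPDE. The gene (ENSG00000138685, hg19 chr4:123747863-123819391, plus strand) had 6.29, 6.38 and 6.76 FPKM in untreated HPDE libraries, 8.77, 9.08 and 8.88 FPKM with residual medium, 34.9, 32.7 and 37.9 FPKM with PANC-1 EV, and 49.9, 49.0 and 50.9 FPKM with PPCL-68 EV. The 4 groups did not overlap. PANC-1 EV was higher than untreated by 2.27 on the log2(FPKM + 1) scale (SE 0.05, adjusted p = 2.01e-13 by limma), a 5.43-fold ratio of means. As a description, PPCL-68 EV was 5.60-fold above residual medium and 7.71-fold above untreated. The level of FGFBP1 per unit of FGF2, both per gene length, was 114.7 to 143.9 in untreated libraries and 45.5 to 61.7 with residual medium. It was 3.72 to 4.38 in the PANC-1 EV libraries and 0.754 to 0.967 in the PPCL-68 EV libraries, so FGFBP1 was the lower of the pair in the PPCL-68 EV libraries and the higher in the other 9 HPDE libraries. The overlapping gene NUDT6 on the other strand had at most 127 reads and at most 5.75% of the FGF2 reads in any library; the library kit kept no strand.

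**Figure D2:**
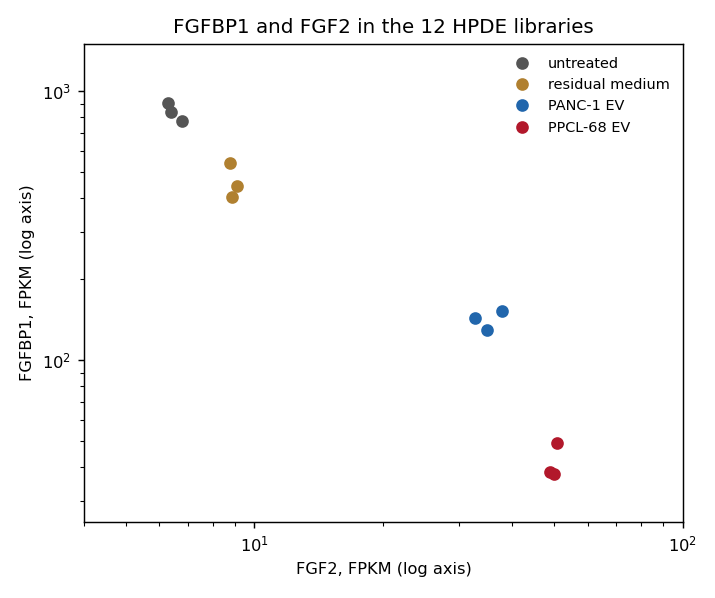
FGFBP1 against FGF2 in the 12 HPDE libraries, both in FPKM on log axes, with 1 point per library and a colour per treatment. The untreated libraries lie at the upper left and the PPCL-68 EV libraries at the lower right, with FGFBP1 at 37.6 to 49.2 FPKM and FGF2 at 49.0 to 50.9 FPKM.

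FGF2 was also low in untreated HPNE and higher under all 3 other treatments. The untreated libraries had 10.05, 10.6 and 13.2 FPKM, the residual medium libraries 69.4, 68.2 and 32.8 FPKM, the PANC-1 EV libraries 37.7, 86.7 and 99.5 FPKM, and the PPCL-68 EV libraries 85.1, 140.1 and 140.2 FPKM. Every treated library lay above every untreated one, and the lowest library of each treated group was the one that stood apart. Against untreated, the log2(FPKM + 1) differences were 2.17 for residual medium (adjusted p = 0.00147 by limma), 2.52 for PANC-1 EV (adjusted p = 0.00142) and 3.29 for PPCL-68 EV (adjusted p = 7.47e-05), comparisons that share the untreated libraries. Against residual medium, PPCL-68 EV was higher by 1.13 (SE 0.37, adjusted p = 0.0317), and PANC-1 EV gave 0.35 (adjusted p = 0.508). That PPCL-68 EV call was lost without residual medium replicate 3 (0.78, adjusted p = 0.0979), without PPCL-68 EV replicate 2 (adjusted p = 0.0981) or replicate 3 (adjusted p = 0.096), and with no minimum on low values (adjusted p = 0.0947). Without the 4 libraries apart it was 1.02 (adjusted p = 4.68e-07), and PANC-1 EV against residual medium passed as well (0.43, adjusted p = 0.000253).

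VEGFA, the main vascular growth factor acting through KDR and FLT1, was higher with both vesicle types in HPDE. The gene (ENSG00000112715, hg19 chr6:43737921-43754224, plus strand) had 25.1, 23.2 and 22.1 FPKM in untreated HPDE libraries, 24.9, 19.3 and 19.7 FPKM with residual medium, 63.5, 59.3 and 64.7 FPKM with PANC-1 EV and 42.5, 45.9 and 49.0 FPKM with PPCL-68 EV. The 2 control groups overlapped, and both vesicle groups lay above them, PANC-1 EV highest. PANC-1 EV exceeded untreated by 1.38 (log2 scale, SE 0.08, adjusted p = 4.12e-09 by limma). As a description, PPCL-68 EV was 2.15-fold above residual medium.

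In HPNE, VEGFA passed the threshold in none of the 6 comparisons made. Its libraries had 30.0, 31.3 and 15.9 FPKM untreated, 16.1, 16.5 and 27.8 FPKM with residual medium, 38.3, 27.6 and 27.5 FPKM with PANC-1 EV and 34.1, 23.6 and 25.1 FPKM with PPCL-68 EV. In each group 1 library, the one apart, sat away from the other 2, and the groups overlapped. PANC-1 EV against untreated was 0.31 (adjusted p = 0.443 by limma) with all libraries and -0.15 (adjusted p = 0.0272) without the 4 apart. PPCL-68 EV against untreated was 0.14 (adjusted p = 0.714) and -0.32 (adjusted p = 0.000272) in the same order. Without the 4 apart, 2 libraries per group remain and the spread is lowered by construction. There the 4 other comparisons were also under the threshold: PANC-1 EV was above residual medium by 0.72 (adjusted p = 1.63e-06), PPCL-68 EV above residual medium by 0.55 (adjusted p = 7.4e-06) and PANC-1 EV above PPCL-68 EV by 0.17 (adjusted p = 0.0246), while residual medium was below untreated (-0.87, adjusted p = 1.66e-07). PANC-1 EV against residual medium passed as well without residual medium replicate 3 alone (0.88, adjusted p = 0.0253).

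VEGFC, the lymphatic growth factor and ligand of FLT4, was higher with PANC-1 EV in HPDE. The gene (ENSG00000150630, hg19 chr4:177604689-177713881, minus strand) had 77.1, 76.0 and 69.9 FPKM in untreated HPDE libraries, 73.5, 67.5 and 65.5 FPKM with residual medium, 105, 114 and 102 FPKM with PANC-1 EV, and 55.8, 54.9 and 51.3 FPKM with PPCL-68 EV. The vesicle groups lay on opposite sides of the controls, PANC-1 EV above and PPCL-68 EV below, with no overlap. PANC-1 EV against untreated was 0.52 (log2 scale, SE 0.06, adjusted p = 2.39e-06 by limma). As a description, PPCL-68 EV was 1.28-fold below residual medium and 1.38-fold below untreated.

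VEGFC in HPNE was higher than untreated in all 3 other groups. Libraries had 8.68, 9.60 and 9.69 FPKM untreated, 43.2, 43.3 and 19.4 FPKM with residual medium, 20.9, 19.5 and 22.3 FPKM with PANC-1 EV, and 16.6, 17.9 and 19.8 FPKM with PPCL-68 EV. None of the treated libraries overlapped the untreated ones, and residual medium replicate 3, which stood apart, was the only library of its group at the level of the vesicle groups. Against untreated, the log2 differences were 1.73 for residual medium (adjusted p = 0.000446 by limma), 1.09 for PANC-1 EV (adjusted p = 0.00963) and 0.89 for PPCL-68 EV (adjusted p = 0.0113). Against residual medium, PPCL-68 EV was lower by -0.84 (SE 0.24, adjusted p = 0.0162) and PANC-1 EV gave -0.64 (adjusted p = 0.068). The PPCL-68 EV call was lost without residual medium replicate 1 (-0.66, adjusted p = 0.0711) or replicate 2 (-0.65, adjusted p = 0.0692), in a fit of only the 6 libraries compared (adjusted p = 0.0691) and with no minimum (adjusted p = 0.0511). Without the 4 libraries apart it was -1.16. PANC-1 EV against residual medium passed with size factors (-0.67, adjusted p = 0.0485), without residual medium replicate 3 (-1.02, adjusted p = 6.5e-05) and without the 4 libraries apart (-1.02, adjusted p = 2.46e-06).

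**Figure D3:**
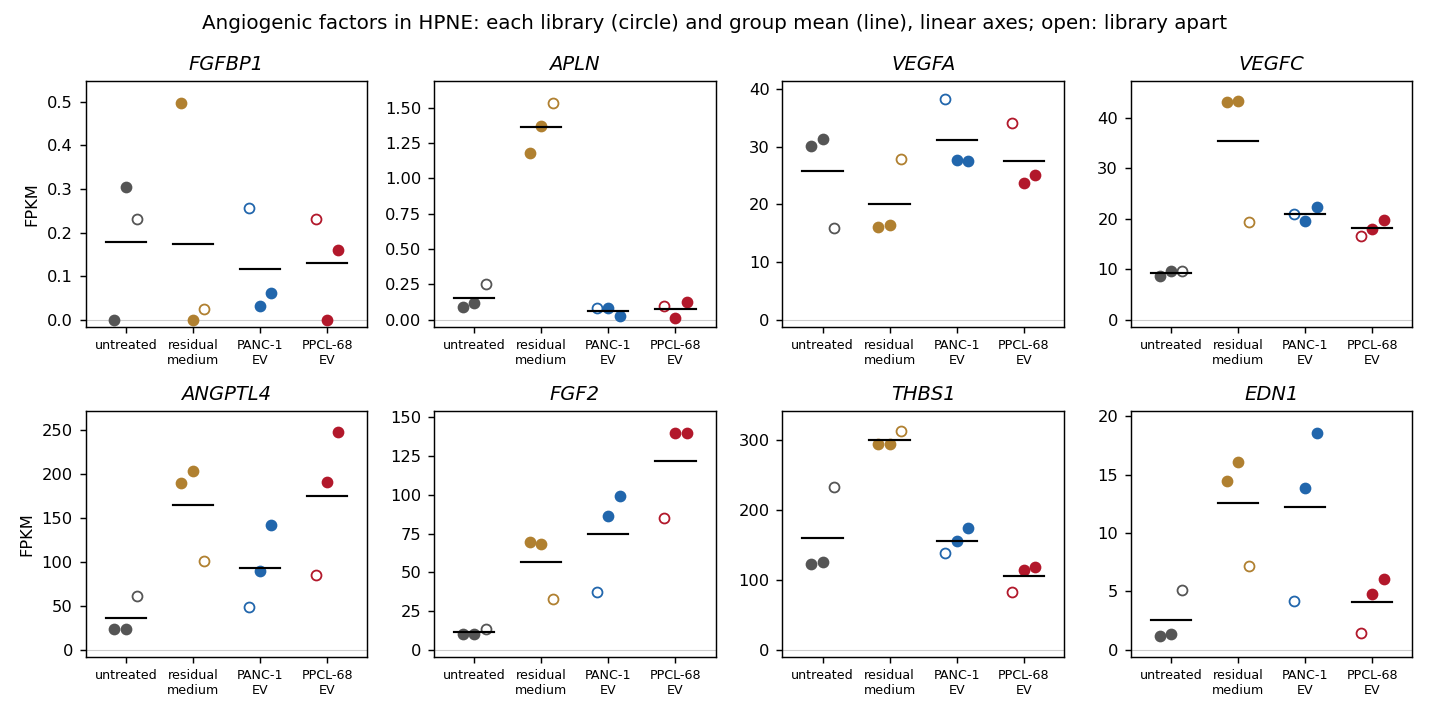
FPKM (linear axes from 0) of the same 8 genes in HPNE, with 1 circle per library, open for the 4 libraries that stood apart, and a line at each group mean. FGFBP1 and APLN stay at or below 1.53 FPKM, and FGF2 rises from 10.05 to 13.2 FPKM in untreated libraries to 85.1 to 140.2 FPKM with PPCL-68 EV.

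ANGPTL4, the lipoprotein lipase inhibitor, was one of the more abundant members in HPNE and differed with residual medium and PPCL-68 EV there. The gene (ENSG00000167772, hg19 chr19:8428173-8439257, plus strand) had 23.4, 24.2 and 61.2 FPKM in untreated HPNE libraries, 189, 203 and 101 FPKM with residual medium, 48.9, 89.2 and 142 FPKM with PANC-1 EV, and 85.4, 191 and 247 FPKM with PPCL-68 EV. The residual medium and PPCL-68 EV libraries lay above all untreated ones, and the PANC-1 EV group overlapped every other HPNE group. Residual medium was above untreated by 2.23 (log2 scale, SE 0.50, adjusted p = 0.00574 by limma) and PPCL-68 EV by 2.25 (adjusted p = 0.00439), while PANC-1 EV gave 1.36 (adjusted p = 0.075). The PANC-1 EV difference passed without untreated replicate 3 (1.80, adjusted p = 0.0281) or PANC-1 EV replicate 1 (1.75, adjusted p = 0.0328), libraries that stood apart. Against residual medium neither vesicle type passed, with -0.88 for PANC-1 EV (adjusted p = 0.215) and 0.02 for PPCL-68 EV (adjusted p = 0.982). Without the 4 libraries apart, the differences from untreated were 2.99 for residual medium, 3.14 for PPCL-68 EV and 2.20 for PANC-1 EV (adjusted p = 4.07e-06), and PANC-1 EV was below residual medium by a difference of -0.80 (adjusted p = 0.00338).

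In HPDE, ANGPTL4 was the 1 member that PANC-1 EV did not separate from untreated. Libraries had 24.4, 26.0 and 22.0 FPKM untreated, 52.9, 37.4 and 37.2 FPKM with residual medium, 19.8, 23.5 and 20.9 FPKM with PANC-1 EV, and 20.2, 25.5 and 28.4 FPKM with PPCL-68 EV. Residual medium stood above the other 3 groups, which overlapped each other. PANC-1 EV against untreated was -0.17 (SE 0.13, adjusted p = 0.274 by limma). As a description, residual medium was 1.76-fold above untreated, and PANC-1 EV and PPCL-68 EV were 1.99-fold and 1.72-fold below residual medium. The antisense neighbour RAB11B-AS1 had at most 26 reads, 1.66% of the ANGPTL4 reads.

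EDN1, the precursor of endothelin-1, was the least abundant of the members with readable levels in both lines. The gene (ENSG00000078401, hg19 chr6:12290596-12297427, plus strand) had 2.82, 3.34 and 3.77 FPKM in untreated HPDE libraries, 4.65, 6.28 and 6.41 FPKM with residual medium, 12.4, 13.2 and 13.6 FPKM with PANC-1 EV, and 6.43, 5.46 and 5.77 FPKM with PPCL-68 EV. Only the PANC-1 EV group stood clear of both other treated groups. PANC-1 EV exceeded untreated by 1.71 (log2 scale, SE 0.10, adjusted p = 3.68e-09 by limma). PPCL-68 EV and residual medium overlapped, with a log2 difference of 0.03 given as a description.

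EDN1 in HPNE had 1.21, 1.37 and 5.14 FPKM in untreated libraries, 14.5, 16.1 and 7.20 FPKM with residual medium, 4.17, 13.9 and 18.6 FPKM with PANC-1 EV, and 1.42, 4.76 and 6.11 FPKM with PPCL-68 EV. The library apart was the highest of the untreated group and the lowest of each other group. Residual medium was above untreated by 2.03 (log2 scale, SE 0.57, adjusted p = 0.0158 by limma) and PANC-1 EV by 1.85 (adjusted p = 0.0406). Both calls depended on single libraries. The first was lost without untreated replicate 1 (adjusted p = 0.0644) or 2 (adjusted p = 0.0619) and without residual medium replicate 1 (adjusted p = 0.0554) or 2 (adjusted p = 0.0603), and the second was lost without untreated replicate 1 (adjusted p = 0.142) or 2 (adjusted p = 0.14) and without PANC-1 EV replicate 2 (adjusted p = 0.13) or 3 (adjusted p = 0.164). The second was also lost with voom on recovered reads (adjusted p = 0.0649), with no minimum (adjusted p = 0.109 by limma) and in a fit of only the 6 libraries compared (adjusted p = 0.0576). Without the 4 libraries apart the differences were 2.83 for residual medium and 2.90 for PANC-1 EV against untreated. PPCL-68 EV against residual medium was -1.48 (adjusted p = 0.0587) although the ranges did not overlap, and -1.34 (adjusted p = 1.23e-05) without the 4 libraries apart. It also passed in a fit of only the 6 libraries compared (adjusted p = 0.0442) and without residual medium replicate 3 (-1.81, adjusted p = 0.036).

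THBS1, the vessel-restraining thrombospondin, ranked between 128th and 576th of all genes by mean level in the 8 groups. The gene (ENSG00000137801, hg19 chr15:39873280-39891667, plus strand) had 173, 174 and 169 FPKM in untreated HPDE libraries, 106, 98.9 and 97.1 FPKM with residual medium, 119, 115 and 114 FPKM with PANC-1 EV, and 97.0, 97.5 and 102 FPKM with PPCL-68 EV. All 9 treated HPDE libraries lay below the untreated ones. PANC-1 EV was lower than untreated by a log2 difference of -0.56 (SE 0.04, adjusted p = 5.02e-08 by limma). PPCL-68 EV and residual medium overlapped, at 98.8 ± 2.65 and 101 ± 4.85 FPKM (SD, n = 3 each). As a description, residual medium itself was below untreated by a log2 difference of -0.77. PANC-1 EV was above residual medium by 0.20, with no overlap.

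THBS1 in HPNE was highest with residual medium. Libraries had 123, 125 and 232 FPKM untreated, 294, 294 and 313 FPKM with residual medium, 138, 155 and 174 FPKM with PANC-1 EV, and 83.3, 114 and 118 FPKM with PPCL-68 EV. The residual medium libraries lay above all other HPNE libraries and the PPCL-68 EV libraries below them. Residual medium was above untreated by 0.97 (log2 scale, SE 0.22, adjusted p = 0.00624 by limma), and PANC-1 EV and PPCL-68 EV were below residual medium by differences of -0.95 (adjusted p = 0.0117) and -1.52 (adjusted p = 0.000519). PPCL-68 EV against untreated was -0.56 (adjusted p = 0.0634) and PANC-1 EV against untreated 0.02 (adjusted p = 0.959). The first of these passed without untreated replicate 1 (-0.71, adjusted p = 0.042) or replicate 2 (-0.70, adjusted p = 0.0497), but was -0.0989 (adjusted p = 0.148) without the 4 libraries apart, where the second was 0.40 (adjusted p = 0.000182). The calls against residual medium held in all 13 alternatives tried for each, and without the 4 libraries apart the differences were -0.83 and -1.33.

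**Figure D4:**
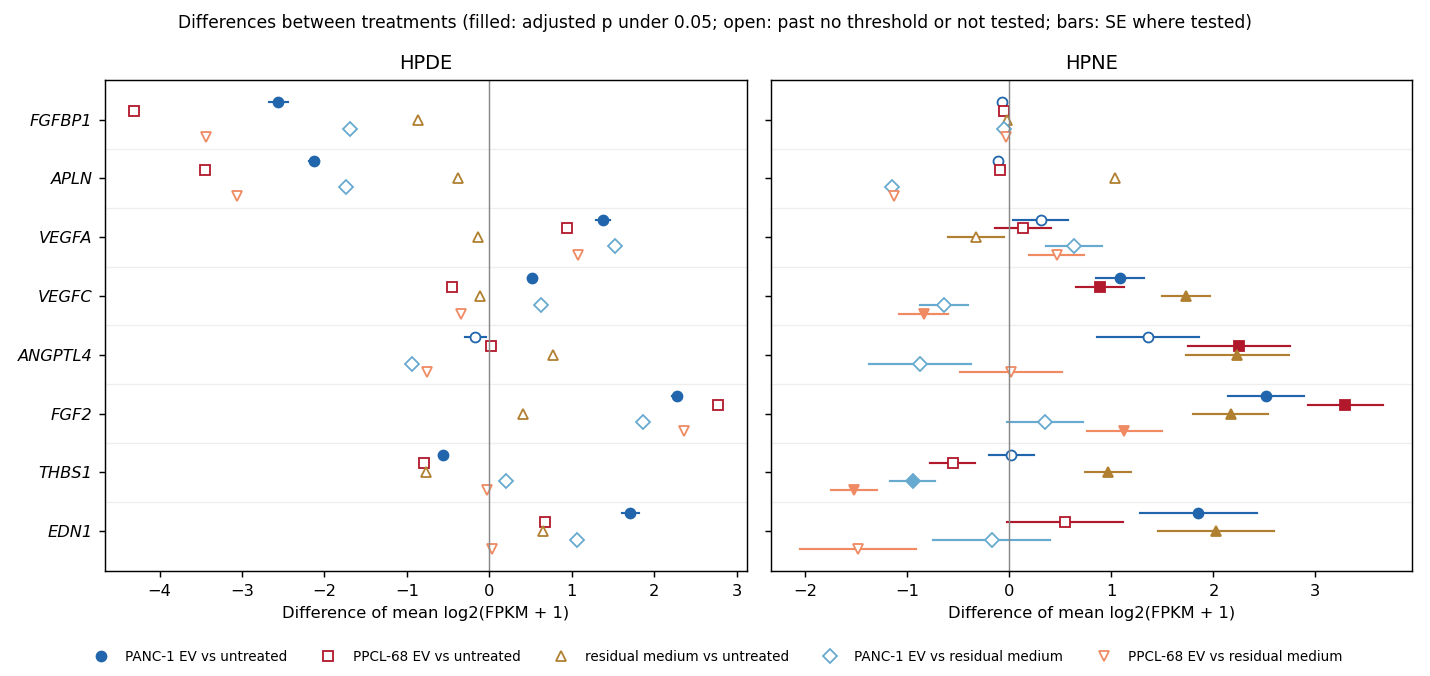
Difference of mean log2(FPKM + 1) for each gene in 5 comparisons, HPDE at left and HPNE at right; filled points passed an adjusted p of 0.05, open points did not pass or were not tested, and bars are standard errors where tested. In HPDE, FGFBP1 and APLN lie left of 0 and FGF2 right of 0 in every vesicle comparison, and standard errors are wider in HPNE.

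Counted together, 7 of the 8 members differed between PANC-1 EV and untreated in HPDE, 4 higher and 3 lower, where 60.6% of all genes tested did. Their median difference was 0.18, beside -0.05 over all genes. In HPNE, 6 members could be tested. Counts were 1 of 6 for PANC-1 EV against residual medium (24.2% of all genes), 3 of 6 for PPCL-68 EV against residual medium (39.9%), 3 of 6 for PANC-1 EV against untreated (21.1%), 3 of 6 for PPCL-68 EV against untreated (42.5%) and 5 of 6 for residual medium against untreated (43.9%). All 5 members that passed in the last comparison were higher with residual medium, with a median over the 6 of 1.88 beside -0.05 for all genes. With so few members, each count is read only beside that share of all genes. Between the vesicle types in HPNE, 0 of 6 members passed with limma (5.47% of all genes did), 2 had an unadjusted p under 0.05, and voom on recovered reads called 0. Without the 4 libraries apart, 5 of 6 passed there. Nothing is read from that count, because the spread is lowered by construction and the share of all genes is not given for that fit.

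In HPDE the other comparisons used libraries of the contrast taken to have chosen the set, so they are read only as ranges. Of all genes tested, 63.3% differed between PANC-1 EV and residual medium, 67.7% between PPCL-68 EV and residual medium, 66.3% between PPCL-68 EV and untreated, and 20.0% between residual medium and untreated. Library ranges did not overlap for 8 of 8 members in the first, where they did not for 66.9% of all genes tested, for 6 in the second (69.5%), for 7 in the third (70.5%) and for 6 in the last (39.9%). Nothing is read from these counts, because the choice of the set used the same libraries. The duct marker sum moved with the vesicle groups in HPDE, between 2786 and 3031 FPKM untreated, 3152 and 3529 FPKM with residual medium, 1563 and 1824 FPKM after PANC-1 EV, and 1445 and 1459 FPKM after PPCL-68 EV. The mesenchymal or HPNE marker sum in HPDE was 81.5 to 90.9 FPKM untreated, 94.7 to 105 FPKM after PANC-1 EV, 105 to 121 FPKM with residual medium and 133 to 151 FPKM after PPCL-68 EV, so it was highest with PPCL-68 EV. The sums follow the most abundant genes of each list. Over the 12 HPDE libraries, KRT8 ranged from 158 to 674 FPKM, KRT19 from 317 to 1140, KRT7 from 587 to 1161 and KRT18 from 119 to 299. SOX9 ranged from 12.6 to 31.5 FPKM, whereas EPCAM (148 to 192) and CDH1 (44.9 to 56.6) varied less. In the other list, FN1 ranged from 52.9 to 126 FPKM, VIM from 19.6 to 28.6 and CDH2 from 0.243 to 0.814. The part of either list in the member differences was not tested.

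The lines were compared within 1 fit of all 24 libraries. Of the 6 members read in both lines, 2 differed in untreated cells, where 83.8% of all genes did: VEGFC was higher in HPDE (log2 difference 2.87, HPDE over HPNE, adjusted p = 8.58e-12 by limma) and FGF2 lower (-0.71, adjusted p = 0.0256). FGFBP1 and APLN passed the minimum mean over the 24 libraries only through HPDE, so their differences of 9.48 and 5.05 are given as a description with no test. The median of all genes in that comparison was 0.38 and became 0.03 after scaling by size factors. THBS1, which was not called, moved from 0.17 to -0.24 with that scaling. FGF2 lost its call without HPNE untreated replicate 3 (adjusted p = 0.0874), without HPDE untreated replicate 1 (adjusted p = 0.0571) or 2 (adjusted p = 0.054), and with no minimum (adjusted p = 0.0588).

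The response to PANC-1 EV against untreated differed between the lines for 1 of those 6 members, where 23.2% of all genes did. Stated as HPDE minus HPNE, the log2 difference for VEGFA was 1.07 (adjusted p = 0.0156 by limma), and the call was lost without HPNE untreated replicate 2 (0.91, adjusted p = 0.0521). ANGPTL4 (-1.53, adjusted p = 0.054) passed without HPNE untreated replicate 3 (adjusted p = 0.0087) or HPNE PANC-1 EV replicate 1 (adjusted p = 0.0129). THBS1 (-0.58, adjusted p = 0.0787) passed without HPNE untreated replicate 3 (adjusted p = 0.000261). Those left-out libraries had stood apart. VEGFC (-0.57, adjusted p = 0.118) passed in a fit of only the groups compared (adjusted p = 0.00202). FGFBP1 and APLN gave -2.48 and -2.01, which restate their fall in HPDE, since the HPNE libraries compared had at most 13 and 31 reads. These values are no measure of a different response, and voom on recovered reads, which weights low counts, gave adjusted p = 0.243 for FGFBP1 and 0.265 for APLN. FGF2, higher with PANC-1 EV in both lines, had a difference between responses of -0.25 (SE 0.40, adjusted p = 0.688). Without the 4 libraries apart, that difference was -0.78 (adjusted p = 3.22e-07), and all 6 members passed: VEGFA at 1.53, VEGFC at -0.59 (adjusted p = 6.25e-05), ANGPTL4 at -2.36, THBS1 at -0.97 and EDN1 at -1.19 (adjusted p = 2.49e-05). The share of all genes is not given for that fit, whose spread is lowered by construction, so nothing is read from its count.

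Ranked by group mean, the members fell into different orders. FGFBP1 and APLN had their 4 highest means in HPDE and, for FGFBP1, no neighbouring HPDE groups overlapped, whereas all HPNE groups did. VEGFA was highest in HPDE with PANC-1 EV and then with PPCL-68 EV, and the remaining 6 groups formed a run of overlapping neighbours. FGF2 and ANGPTL4 had their 3 highest means in HPNE, PPCL-68 EV first for each, and neighbours among those 3 overlapped. THBS1 was highest in HPNE with residual medium, apart from the next group. EDN1 had no pair of neighbouring groups in its order that did not overlap.

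Related genes were counted from 9 lists of 79 genes, of which 78 were found and 45 (HPDE) or 47 (HPNE) had enough signal to test. In HPDE, 34 differed between PANC-1 EV and residual medium (17 higher, 17 lower), 34 between PPCL-68 EV and residual medium (15 and 19), 35 between PANC-1 EV and untreated (19 and 16), 33 between PPCL-68 EV and untreated (19 and 14) and 22 between residual medium and untreated (14 and 8). In HPNE the counts were 23 (14 and 9), 18 (7 and 11), 16 (8 and 8), 27 (9 and 18) and 31 (15 and 16) in the same order. As shares of the related genes tested, those in HPDE were 75.6%, 75.6%, 77.8%, 73.3% and 48.9%, beside 63.3%, 67.7%, 60.6%, 66.3% and 20.0% of all genes. Those in HPNE were 48.9%, 38.3%, 34.0%, 57.4% and 66.0%, beside 24.2%, 39.9%, 21.1%, 42.5% and 43.9% of all genes. The shares were not compared by a test. Directions were mixed in both lines, and comparisons with the same control share its libraries.

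Of the receptors, the endothelial ones were close to unread in both lines: KDR had at most 16 reads, FLT1 at most 49 and FLT4 at most 7 in any library. The co-receptors NRP1 and NRP2 were read in both lines, NRP2 with group means of 5.40 to 12.5 FPKM in HPNE and 3.61 to 4.68 FPKM in HPDE. NRP1, a co-receptor for VEGFA, had an HPDE mean of 7.62 FPKM with residual medium, 18.6 FPKM with PANC-1 EV and 37.8 FPKM with PPCL-68 EV. These were log2 differences of 1.19 (adjusted p = 3.28e-10 by limma) and 2.17 (adjusted p = 7.33e-13). NRP1 also rose in HPNE, by 0.40 (PANC-1 EV, adjusted p = 0.0112) and 0.43 (PPCL-68 EV, adjusted p = 0.00419) against residual medium. FGFR1, a receptor for FGF2, was higher with PPCL-68 EV than with residual medium in HPDE (0.65, adjusted p = 1.88e-06) and in HPNE (0.80, adjusted p = 0.00014). The list of FGF ligands, binding proteins and receptors did not share that direction. In the same comparison, 1 was higher and 5 lower of 7 tested in HPDE (median -0.27, 67.7% of all genes differed). In HPNE, 2 were higher and 3 lower of 6 tested (median -0.35, 39.9%). CD47, a THBS1 receptor, had group means of 10.7 to 19.2 FPKM over the 8 groups. EDNRA, an endothelin receptor, was lower in HPNE with residual medium than untreated (-2.23, adjusted p = 0.0073) and higher with PANC-1 EV than with residual medium (1.77, adjusted p = 0.0336).

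Other named genes changed by at least 1 on the log2 scale between vesicles and residual medium. With PANC-1 EV in HPDE, these were CXCL10, an angiogenesis-inhibiting chemokine (88.8 against 19.9 FPKM), HBEGF, an EGF receptor ligand (157 against 60.9 FPKM), and TYMP, thymidine phosphorylase (96.4 against 44.5 FPKM), all higher. With PPCL-68 EV in HPDE it was NDRG1, a hypoxia-response gene (68.0 against 25.4 FPKM). In HPNE, ANGPTL2, an angiopoietin-like factor, was higher with PANC-1 EV (16.0 against 2.48 FPKM), and the FGF ligands FGF1 (0.802 against 4.06 FPKM) and FGF5 (10.1 against 30.9 FPKM) were lower with PPCL-68 EV. The adjusted p by limma ranged up to 0.0141 over these 7 genes.

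Of the 11 hypoxia-response genes tested in HPNE, 7 were higher with residual medium than untreated and 0 lower (median 0.85), where 43.9% of all genes differed. Against residual medium, 7 were lower and 0 higher with PANC-1 EV (median -0.66, 24.2% of all genes) and with PPCL-68 EV (median -0.99, 39.9%), comparisons that share the residual medium libraries. Against untreated, 1 was higher and 0 lower with PANC-1 EV (21.1% of all genes), and 1 was higher and 1 lower with PPCL-68 EV (42.5%). LDHA, lactate dehydrogenase A, had means of 788 FPKM with residual medium, 321 FPKM untreated, 299 FPKM with PANC-1 EV and 264 FPKM with PPCL-68 EV. BNIP3, a mitophagy receptor, had 194 FPKM with residual medium and 83.5 FPKM with PANC-1 EV, and PDK1, a pyruvate dehydrogenase kinase, 13.1 FPKM with residual medium and 3.42 FPKM with PPCL-68 EV. In HPDE the same list was mixed with vesicles against residual medium. Of 12 tested, 6 were higher and 5 lower with PANC-1 EV (63.3% of all genes) and 5 higher and 4 lower with PPCL-68 EV (67.7%). Compared with untreated HPDE, 5 of the 12 were higher and 0 lower with residual medium (median 0.11, 20.0% of all genes). Also against untreated, 6 were higher and 3 lower with PANC-1 EV (60.6%), and 6 higher and 2 lower with PPCL-68 EV (66.3%).

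The angiogenesis inhibitors took no single direction. In HPNE, of 6 tested, 4 were lower and 0 higher with residual medium than untreated (median -1.004, 43.9% of all genes differed), 5 were lower and 0 higher with PPCL-68 EV than untreated (median -1.03, 42.5%), and 3 were lower and 0 higher with PANC-1 EV than untreated (21.1%). Against residual medium, 3 were higher and 0 lower with PANC-1 EV (median 0.32, 24.2%), and 0 passed with PPCL-68 EV (39.9%). In HPDE, of 7 tested, 5 were lower and 0 higher with PPCL-68 EV than with residual medium (median -0.49, 67.7%), 4 were lower and 0 higher with PPCL-68 EV than untreated (66.3%), and 1 was higher and 1 lower with residual medium than untreated (20.0%). With PANC-1 EV there, 2 were higher and 4 lower against residual medium (63.3%), and 2 were higher and 3 lower against untreated (60.6%). COL18A1, which encodes the precursor of endostatin, had HPNE means of 271 FPKM untreated and 90.0 FPKM with residual medium (log2 difference -1.65, adjusted p = 0.00202 by limma).

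The genes most like each member were found by Pearson correlation of log2(FPKM + 1) over the 12 libraries of the line where the member was higher, a description in which all points share 4 treatment groups. In HPDE, among 12222 genes, FGFBP1 was nearest to FOXM1 (r = 0.997) and SPARC, APLN to FDFT1 (0.997), SYK and PRSS23, VEGFA to DUSP7 (0.988), POLR3D and NFIL3, and VEGFC to FST (0.982), STARD5 and LRIG3. In HPNE, among 11502 genes, ANGPTL4 was nearest to UCK2 (0.986), ASL and ZBED4, FGF2 to POLR3D (0.988), MCL1 and MAFF, THBS1 to MYO1E (0.977), OXTR and RRBP1, and EDN1 to ARHGEF28 (0.982), PDLIM5 and MOK. POLR3D was the 1 gene named for a pair of members, VEGFA in HPDE and FGF2 in HPNE.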

How the data were processed

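The 24 RNA-seq libraries fall into 8 groups of 3, taken from the sample titles. Per the file headers, the authors deposited an FPKM value for each of 48162 genes in each library, with gene length, symbol and position. The submitters' processing notes name CASAVA, STAR, HTSeq, DESeq2 and hg19, with no role or order. The library kit kept no strand, per the labels' protocols. In every library 100% of deposited FPKM values times gene length were whole multiples of 1 step (tolerance 0.01 reads), which gave the reads assigned to genes. FPKM depends on each library's total, and reads carried no molecular identifiers, so a floor of 3 reads covers counting error only.

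Differences were tested with limma 3.58.1 in R 4.3.3 (lmFit, eBayes with a trend) on log2(FPKM + 1), a scale that understates the change of weakly expressed genes. The 12 libraries of a line, or all 24 for comparisons of the lines, entered each fit, limited to genes averaging 1 FPKM or more: 11503 in HPNE, 12223 in HPDE and 12377 over both. Tests were two-sided, adjusted by Benjamini-Hochberg over all genes tested, with a threshold of 0.05, and checked on simulated data. The members and lists were chosen with earlier results of these data known, and the lists were written from general knowledge.

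The text names the 8 members and, of related genes, at most 4 per comparison of vesicles with residual medium, by size of difference, among those past the threshold with non-overlapping groups and an absolute log2 difference of at least 1. The 3 genes most like each member were also named, except 1 that is not reported here. Receptors, COL18A1, and the further values of LDHA, NRP1 and EDNRA, were chosen after their values were seen. Alternatives were a pseudocount of 0.1, no minimum, size factors, the replicate block, voom on recovered reads, only the groups compared, without the 4 HPNE libraries apart, and leaving out each library. Voom called 7509 genes for PANC-1 EV against untreated in HPDE, where limma on FPKM called 7413. Same-numbered libraries deviated together only in HPNE PANC-1 EV against PPCL-68 EV, with correlations of 0.565, 0.292 and 0.500 by number.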

Additional observations from a re-analysis of the deposited data

Results flagged for a closer look

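The response to PANC-1 EV against untreated was compared between the lines in a test of the difference itself, which 3 members passed with an adjusted p under 0.05 by limma. As HPDE minus HPNE on the log2(FPKM + 1) scale, the values were -2.48 for FGFBP1, -2.01 for APLN and 1.07 for VEGFA. FGFBP1 and APLN had at most 13 and 31 reads per library in the HPNE groups of that comparison and entered the test only through HPDE, so for them the test does not show that the lines responded differently, and voom gave adjusted p = 0.243 and 0.265. VEGFA lost its call without HPNE untreated replicate 2 (0.91, adjusted p = 0.0521).

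In 4 further cases every library of one line moved one way and every library of the other line moved the opposite way, and the difference was not tested. As HPDE minus HPNE, these were 1.15 for THBS1 with PANC-1 EV against residual medium, -1.34 for VEGFC with PPCL-68 EV against untreated, -1.42 for APLN with residual medium against untreated and -1.73 for THBS1 with residual medium against untreated.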

How the results depend on the processing

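In HPDE, the PANC-1 EV against untreated calls of all 8 members, 7 passing and ANGPTL4 not, were on the same side of the threshold in all 12 alternatives. Over all tested member differences and alternatives, 721 values kept direction and side of the threshold, 41 gained a call, 27 lost one and 23 reversed sign. Of the differences given as a description, 367 stayed within the replicate spread and 17 moved beyond it. The cause of these changes was not tested, except that leaving out the 4 HPNE libraries apart lowers the spread by construction. The counts of members and related genes below are given without the share of all genes called under the same alternative. They show only how the calls move, and nothing about the members is read from their size.

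Without those 4 libraries, the members that differed in HPNE numbered 5 for PANC-1 EV against residual medium, 5 for PPCL-68 EV against residual medium, 6 for PANC-1 EV against untreated, 5 for PPCL-68 EV against untreated and 5 for PANC-1 EV against PPCL-68 EV. They numbered 8 for the response between lines and 7 for the untreated lines, where counts here include FGFBP1 and APLN, which pass the minimum only through HPDE. The related genes that differed then numbered 38 for PANC-1 EV against residual medium, 40 for PPCL-68 EV against residual medium and 36 for PANC-1 EV against untreated. Sign changes without those libraries were 0.0706 for EDN1 (PANC-1 EV against residual medium), -0.15 for VEGFA (PANC-1 EV against untreated), -0.32 for VEGFA (PPCL-68 EV against untreated) and 0.0184 for ANGPTL4 (untreated lines). For HPNE PANC-1 EV against residual medium, no minimum gave 2 members and 15 related genes, and size factors gave 2 members. THBS1 between untreated lines was -0.24 with size factors, and voom gave 1 member for the response between lines.

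Leaving out each library in turn, members that differed in HPNE ranged from 1 to 3 for PANC-1 EV against residual medium, from 2 to 3 for PPCL-68 EV against residual medium, from 2 to 4 for PANC-1 EV against untreated, from 3 to 4 for PPCL-68 EV against untreated and stayed at 0 between vesicle types. They ranged from 2 to 5 for the response between lines and from 3 to 4 for the untreated lines. The counts between lines again include FGFBP1 and APLN, which pass the minimum only through HPDE. Related genes ranged from 14 to 26, from 14 to 22 and from 8 to 20 in the first 3 of these comparisons. The low of 14 came without residual medium replicate 2, and the low of 8 without untreated replicate 2 or PANC-1 EV replicate 3. Single members that changed sign ranged from -0.56 to 0.40 for EDN1 (HPNE PANC-1 EV against residual medium), from -0.30 to 0.46 for ANGPTL4 (HPNE PPCL-68 EV against residual medium), from -0.14 to 0.32 for THBS1 (HPNE PANC-1 EV against untreated) and from -0.17 to 0.30 for VEGFA (HPNE PPCL-68 EV against untreated). In the response between lines the ranges were -0.67 to 0.0169 for FGF2 and -0.72 to 0.24 for EDN1, and between untreated lines -0.38 to 0.0902 for VEGFA and -0.66 to 0.0184 for ANGPTL4.

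With the replicate block, 5 members differed in the response between lines, FGFBP1 and APLN among them, which pass the minimum only through HPDE. There ANGPTL4 (adjusted p = 0.0429 by limma) and THBS1 (adjusted p = 0.0296) passed as well. In HPNE the block gave 1 member for PANC-1 EV against residual medium, 4 for PPCL-68 EV against residual medium, 3 for PANC-1 EV against untreated, 4 for PPCL-68 EV against untreated, 5 for residual medium against untreated and 0 between vesicle types, and in HPDE 7 for PANC-1 EV against untreated. EDN1 passed with the block for PPCL-68 EV against residual medium (adjusted p = 0.0401) and THBS1 for PPCL-68 EV against untreated (adjusted p = 0.026). No blocked fit was made for the untreated lines, which share no block.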
